A study of Rattus norvegicus with 10 samples.

Results

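A set of 6 genes that mark neutrophils were followed across kidney RNA of rats fed with or without choline. They are Il1r2, Csf3r, Cxcr2, S100a8, S100a9 and Mmp8. A gene was found through the annotation of the array's probe sets, and each of the 6 members had 1 probe set, out of 14506 genes named on the array. Total kidney RNA of male weanling Wistar rats was read on 10 expression arrays after 6 days on the diets, 1 array for each pool of 3 animals. The 5 groups had 2 pools each. Necrotic kidneys came from choline-deficient rats on vegetable oils (corn and hydrogenated oils) and carry the word necrotic in the labels. Deficient vegetable oil kidneys came from the same diet without that word. Control vegetable oil kidneys came from rats that received choline with those oils. Deficient and control fish oil kidneys came from rats fed menhaden oil without and with choline. The labels do not say how necrotic kidneys were told from the others, and pooling hides the spread between single animals.

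Neutrophils are short-lived granulocytes that leave the bone marrow under granulocyte colony-stimulating factor, follow chemokines into injured tissue and release granule proteins there. In the injured kidney they gather in the tissue around damaged tubules. Csf3r is the receptor of granulocyte colony-stimulating factor, Cxcr2 the receptor of the CXC chemokines that attract neutrophils, and Il1r2 a decoy receptor that binds interleukin 1 without signalling. S100a8 and S100a9 are calcium-binding proteins that pair to form calprotectin, the main cytosolic protein of neutrophils. Mmp8 is the neutrophil collagenase, stored in granules. The whole organ was measured, so more neutrophils, more RNA per cell and RNA from other cell types cannot be told apart. The kidney identity of the arrays was plain, since Slc34a1, the proximal tubule phosphate carrier, had 10.58 and 10.43 in necrotic kidneys and between 13.69 and 14.03 on the other 8 arrays (log2 intensity).

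Because the members moved together across the vegetable oil groups, promoter sequence was taken from RefSeq (build GRCr8), which covered 4 of the 6 genes: Csf3r, S100a9, Cxcr2 and Mmp8. Each window runs from 250 bases before to 50 after the gene's start. Letters of 4 motifs were searched on both strands: TTNNGNAA for C/EBP factors and GAGGAA for PU.1, which drive granulocyte genes, GGGNNNNNCC for NF-kB, and TATAAA for the TATA box. C/EBP letters occurred in 3 of the 4 windows and in 40.8% of all 27457 promoter windows. PU.1 letters occurred in 2 of the 4 and in 27.5% of all, NF-kB letters in 2 of the 4 and 48.5% of all, and TATA letters in 2 of the 4 and 14.3% of all. These shares make such matches common, and a match is a description of letters only. The 3 windows with C/EBP letters are shown 5′ to 3′ along the gene, with every motif match in capitals.
S100a9, chr2:178490573-178490872, minus strand: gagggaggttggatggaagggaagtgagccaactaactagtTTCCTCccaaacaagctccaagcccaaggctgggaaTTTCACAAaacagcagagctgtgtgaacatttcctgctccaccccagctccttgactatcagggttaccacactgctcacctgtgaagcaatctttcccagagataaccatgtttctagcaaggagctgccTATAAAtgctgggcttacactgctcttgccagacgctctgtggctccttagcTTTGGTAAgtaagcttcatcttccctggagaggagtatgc
Mmp8, chr8:13008640-13008939, plus strand: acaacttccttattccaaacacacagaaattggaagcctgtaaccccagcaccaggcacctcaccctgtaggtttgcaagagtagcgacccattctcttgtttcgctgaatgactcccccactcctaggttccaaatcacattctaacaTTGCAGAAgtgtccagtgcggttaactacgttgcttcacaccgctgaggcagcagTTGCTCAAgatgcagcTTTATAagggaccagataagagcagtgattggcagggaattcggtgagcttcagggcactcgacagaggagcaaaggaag
Csf3r, chr5:143582970-143583269, plus strand: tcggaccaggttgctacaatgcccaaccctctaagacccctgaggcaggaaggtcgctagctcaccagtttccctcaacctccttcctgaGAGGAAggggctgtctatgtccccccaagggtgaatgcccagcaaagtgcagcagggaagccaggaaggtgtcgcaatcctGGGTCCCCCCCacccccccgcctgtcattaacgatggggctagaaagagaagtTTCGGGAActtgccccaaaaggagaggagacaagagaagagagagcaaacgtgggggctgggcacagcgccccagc
In S100a9 the C/EBP letters began at positions -173 and 11 from the start, the PU.1 letters at -209 and the TATA letters at -42. In Mmp8 the C/EBP letters began at -101 and -46, and the TATA letters at -30 read on the opposite strand. In Csf3r the C/EBP letters began at -26, the PU.1 letters at -160, and overlapping NF-kB letters at -79 and -78. The Cxcr2 window held only NF-kB letters, at -39.

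In necrotic kidneys all 6 members rose against control vegetable oil kidneys. The test was limma's moderated test over all 29214 probe sets and all 10 arrays, with Benjamini-Hochberg adjustment and a threshold of 0.05, and 10.2% of probe sets rose by that rule. Differences are on the log2 scale, with moderated standard errors and 2 pools per group. The receptors are given first. Il1r2 had 8.78 and 8.25 in necrotic kidneys, against 5.49 and 5.51 in control vegetable oil kidneys. It rose by 3.02 ± 0.25, an 8.09-fold change in intensity (adjusted p = 0.000142), and the groups lay far apart. Csf3r had 8.45 in each necrotic pool, against 7.09 and 7.00 in control vegetable oil kidneys. It rose by 1.40 ± 0.11 (adjusted p = 0.000114), and its necrotic pools were nearly equal. Cxcr2 had 8.17 and 7.27 in necrotic kidneys, against 5.45 and 5.54 in control vegetable oil kidneys. It rose by 2.22 ± 0.28 (adjusted p = 0.000998), with necrotic replicate 1 well above replicate 2.

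Both calprotectin genes and the collagenase followed the same order. S100a9 had 8.62 and 7.83 in necrotic kidneys, against 6.04 and 6.09 in control vegetable oil kidneys, and rose by 2.16 ± 0.23 (adjusted p = 0.000429). Mmp8 had 7.40 and 6.90 in necrotic kidneys, against 5.54 and 5.39 in control vegetable oil kidneys, and rose by 1.68 ± 0.21 (adjusted p = 0.001). S100a8, the partner of S100a9, had 4.98 and 4.18 in necrotic kidneys, against 3.58 and 3.85 in control vegetable oil kidneys. Its rise of 0.87 ± 0.25 was the smallest of the 6 (adjusted p = 0.0414). Its probe set was dim on every array, between the 4.17th and the 14.3rd percentile of all probe sets, while the mean of S100a9 lay at the 39.3rd percentile. Probe sets differ in response, so this says nothing of which RNA was more abundant. The S100a8 call ended under several settings, with adjusted p = 0.0555 after median centring, 0.0964 when only the groups compared were fitted, and 0.2 without necrotic replicate 1, where the difference was 0.46. It also ended without control vegetable oil replicate 1 (0.73, adjusted p = 0.199) or 2 (1.00, adjusted p = 0.0954), and without either pool of deficient vegetable oil (adjusted p = 0.0576) or of deficient fish oil (0.0594 as adjusted p). The calls of the other 5 members held without any 1 array, with adjusted p of at most 0.0124.

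**Figure D1:**
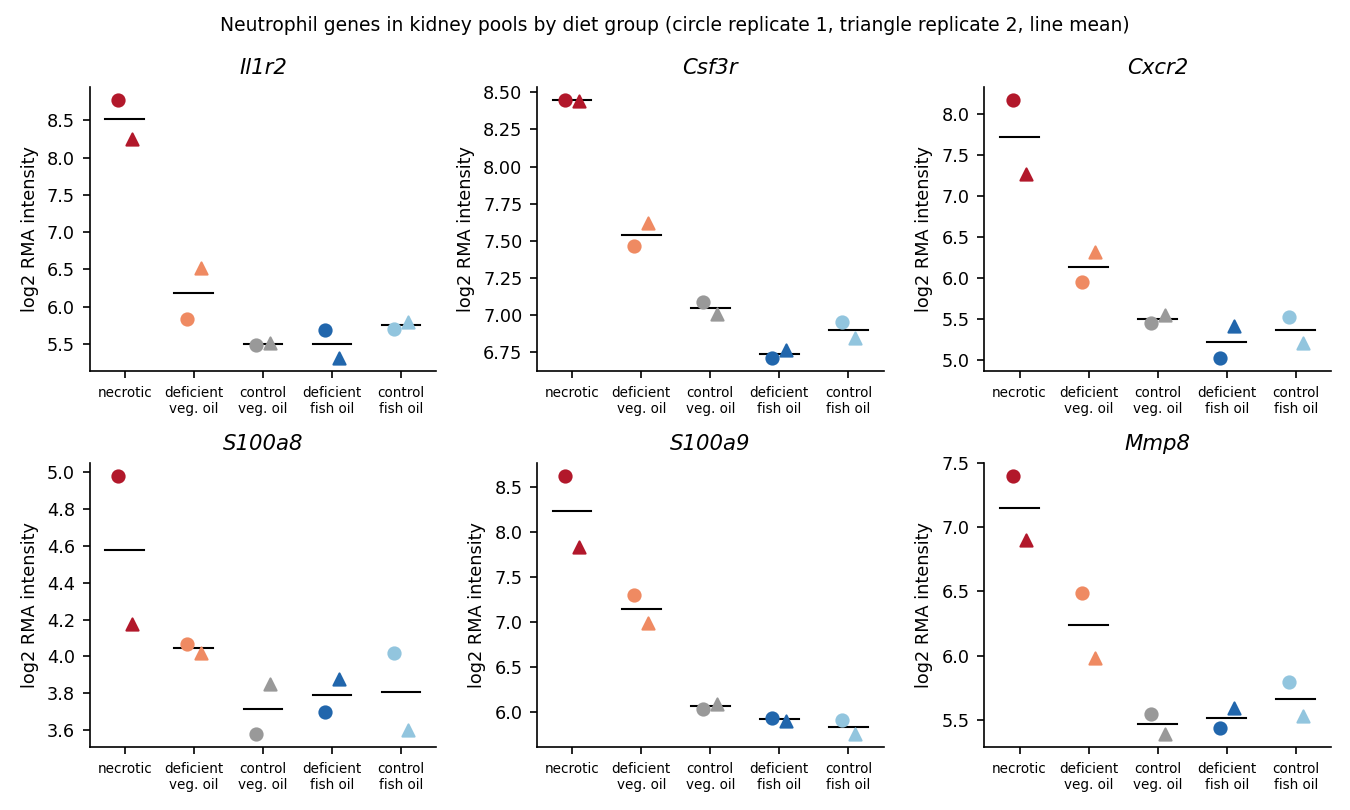
Log2 intensity (vertical axis) of the 6 neutrophil genes in each pool of the 5 diet groups (horizontal axis); circles are replicate 1, triangles replicate 2 and lines the group means. The necrotic pools are the highest for every gene, the deficient vegetable oil pools come next, and the control and fish oil pools lie together at the bottom. For S100a8 the lower deficient vegetable oil pool nearly equals the higher control fish oil pool. The vertical axes differ between genes.

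Kidneys of the same deficient diet without the necrotic label lay between. For all 6 members both necrotic pools were above both deficient vegetable oil pools, and these were above both control vegetable oil pools. Of all probe sets 6.88% had this order. Both necrotic pools were also above the other 8 arrays for every member, as for 14.9% of probe sets. Il1r2 had 5.83 and 6.52 in deficient vegetable oil kidneys, Csf3r 7.46 and 7.62, and Cxcr2 5.95 and 6.31. S100a9 had 7.30 and 6.98, Mmp8 6.49 and 5.98, and S100a8 4.07 and 4.02. These pools were also above all 6 control and fish oil arrays for every member, which held for 8.48% of probe sets. For the dim S100a8 this was nearly a tie, with 4.0193 in deficient vegetable oil replicate 2 and 4.0159 in control fish oil replicate 1. The receptors Il1r2, Csf3r and Cxcr2 were higher in replicate 2 of this group, and S100a8, S100a9 and Mmp8 in replicate 1, so the 2 pools did not share an order.

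Against control vegetable oil kidneys the deficient vegetable oil kidneys passed the limma threshold for 0 of the 6 members, where 1.13% of probe sets passed in either direction. The unadjusted p was under 0.05 for 4 members and for 15.2% of probe sets. S100a9 differed by 1.08 ± 0.23 (adjusted p = 0.0745, 95% interval 0.55 to 1.60), Mmp8 by 0.77 ± 0.21 (adjusted p = 0.155) and Il1r2 by 0.68 ± 0.25 (adjusted p = 0.264). Csf3r differed by 0.49 ± 0.11 (adjusted p = 0.0848), Cxcr2 by 0.63 ± 0.28 (adjusted p = 0.335) and S100a8 by 0.33 ± 0.25 (adjusted p = 0.562). The S100a9 difference passed in the fits without necrotic replicate 1 or without necrotic replicate 2 (adjusted p = 0.0187 in each), in which only the estimated spread changed. This comparison shares its control arrays with the necrotic one. The Il1r2 difference was 0.33 without deficient vegetable oil replicate 2 and 1.02 without replicate 1 of that group. The S100a8 difference was 0.19 without control vegetable oil replicate 1.

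Within the same diet, necrotic kidneys were higher than deficient vegetable oil kidneys in 5 of the 6 members, against 4.71% of all probe sets. Il1r2 rose by 2.34 ± 0.25 (adjusted p = 0.00113), Cxcr2 by 1.59 ± 0.28 (adjusted p = 0.0106) and Csf3r by 0.91 ± 0.11 (adjusted p = 0.002). S100a9 rose by 1.08 ± 0.23 (adjusted p = 0.0219) and Mmp8 by 0.91 ± 0.21 (adjusted p = 0.0321), while S100a8 differed by 0.54 ± 0.25 (adjusted p = 0.248). The Il1r2 and Csf3r calls held without any 1 array, with adjusted p of at most 0.0158. S100a9 missed the threshold without necrotic replicate 1 (0.69, adjusted p = 0.0548) and without deficient vegetable oil replicate 1 (1.24, adjusted p = 0.0648) or 2 (0.93, adjusted p = 0.0847). Mmp8 missed it without necrotic replicate 1 (0.66, adjusted p = 0.147), deficient vegetable oil replicate 2 (0.66, adjusted p = 0.118), either control vegetable oil array (adjusted p = 0.0565) or either deficient fish oil array (0.0507 as adjusted p). Cxcr2 missed it without deficient vegetable oil replicate 1 (1.41, adjusted p = 0.0841), and S100a8 passed without necrotic replicate 2 (0.94, adjusted p = 0.0495).

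Whether the second difference (necrotic minus deficient) exceeded the first (deficient minus control) was asked after the values had been seen. No member passed in limma, against 0.62% of probe sets, and the unadjusted p was under 0.05 for 1 of the 6, against 12.2% of probe sets. Il1r2 had an excess of 1.66 ± 0.43 (adjusted p = 0.154), which was 0.97 without deficient vegetable oil replicate 1 and 2.36 without replicate 2 of that group. Cxcr2 had 0.95 ± 0.49 (adjusted p = 0.483), which was 0.50 without necrotic replicate 1 and 1.41 without necrotic replicate 2. For S100a9 the excess was 0.01 ± 0.40 (adjusted p = 0.997; 95% interval -0.90 to 0.92), so equal and unequal differences both lie within its error.

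Under fish oil the members were at similar, low levels without and with choline. Il1r2 had 5.69 and 5.31 in deficient fish oil kidneys, against 5.69 and 5.80 in control fish oil kidneys. Csf3r had 6.71 and 6.76 in deficient fish oil kidneys, against 6.95 and 6.85 in control fish oil kidneys. Both deficient pools were below both control pools for these genes alone, 2 of the 6 members, and 31.7% of probe sets did not overlap between these groups. Cxcr2 had 5.02 and 5.41 in deficient fish oil kidneys, against 5.52 and 5.21 in control fish oil kidneys. S100a9 had 5.93 and 5.90 in deficient fish oil kidneys, against 5.91 and 5.75 in control fish oil kidneys. S100a8 had 3.70 and 3.88 in deficient fish oil kidneys, against 4.02 and 3.60 in control fish oil kidneys, and Mmp8 had 5.44 and 5.59, against 5.79 and 5.53. The last 4 genes overlapped between the groups.

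The difference under fish oil lay between -0.25 and 0.09 for the 6 members, and limma called 0 of them, as it called 0% of all probe sets. None had an unadjusted p under 0.05, which 3.55% of probe sets had. Il1r2 differed by -0.25 ± 0.25 (95% interval -0.82 to 0.32), Cxcr2 by -0.15 ± 0.28 (-0.79 to 0.50) and S100a9 by 0.09 ± 0.23 (-0.44 to 0.61). The intervals of Csf3r (-0.41 to 0.09), Mmp8 (-0.64 to 0.34) and S100a8 (-0.60 to 0.55) also held 0. The interaction then compared the choline effect of the necrotic kidneys with that under fish oil, and 5 of the 6 members differed, against 3.82% of probe sets called higher. The excess was 3.27 ± 0.35 for Il1r2 (adjusted p = 0.00159), 2.37 ± 0.40 for Cxcr2 (adjusted p = 0.00966) and 1.56 ± 0.16 for Csf3r (adjusted p = 0.00117). It was 2.07 ± 0.33 for S100a9 (adjusted p = 0.00725), 1.83 ± 0.30 for Mmp8 (adjusted p = 0.00891) and 0.89 ± 0.36 for S100a8 (adjusted p = 0.176). The 5 calls held without any 1 array, the largest adjusted p being 0.0459, and S100a8 passed without necrotic replicate 2 (1.29, adjusted p = 0.0358).

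With the deficient vegetable oil kidneys in place of the necrotic ones, the same interaction called 0 members in limma and 0.103% of probe sets, with an unadjusted p under 0.05 for 4 members and 9.9% of probe sets. Its values ran from 0.35 ± 0.36 for S100a8 to 0.99 ± 0.33 for S100a9, with adjusted p between 0.253 and 0.755. Deficient fish oil kidneys set directly against deficient vegetable oil kidneys were lower in 2 members, against 1.39% of probe sets called lower. S100a9 fell by 1.22 ± 0.23 (adjusted p = 0.039) and Csf3r fell by 0.80 ± 0.11 (adjusted p = 0.012). Cxcr2 differed by -0.92 ± 0.28 (adjusted p = 0.198), Mmp8 by -0.72 ± 0.21 (adjusted p = 0.177), Il1r2 by -0.68 ± 0.25 (adjusted p = 0.294) and S100a8 by -0.26 ± 0.25 (adjusted p = 0.794). The S100a9 call ended after quantile normalization once more (adjusted p = 0.0626) and without any 1 of the 8 arrays outside the necrotic group, with adjusted p between 0.0656 and 0.209. The Csf3r call ended without deficient vegetable oil replicate 2 (adjusted p = 0.0607) and without deficient fish oil replicate 1 (adjusted p = 0.0917) or 2 (adjusted p = 0.0943). With choline given, control fish oil and control vegetable oil kidneys differed by between -0.23 and 0.25 in the 6 members. Limma called 0 of them and 0.185% of all probe sets. None had an unadjusted p under 0.05, which 12.4% of probe sets had.

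**Figure D2:**
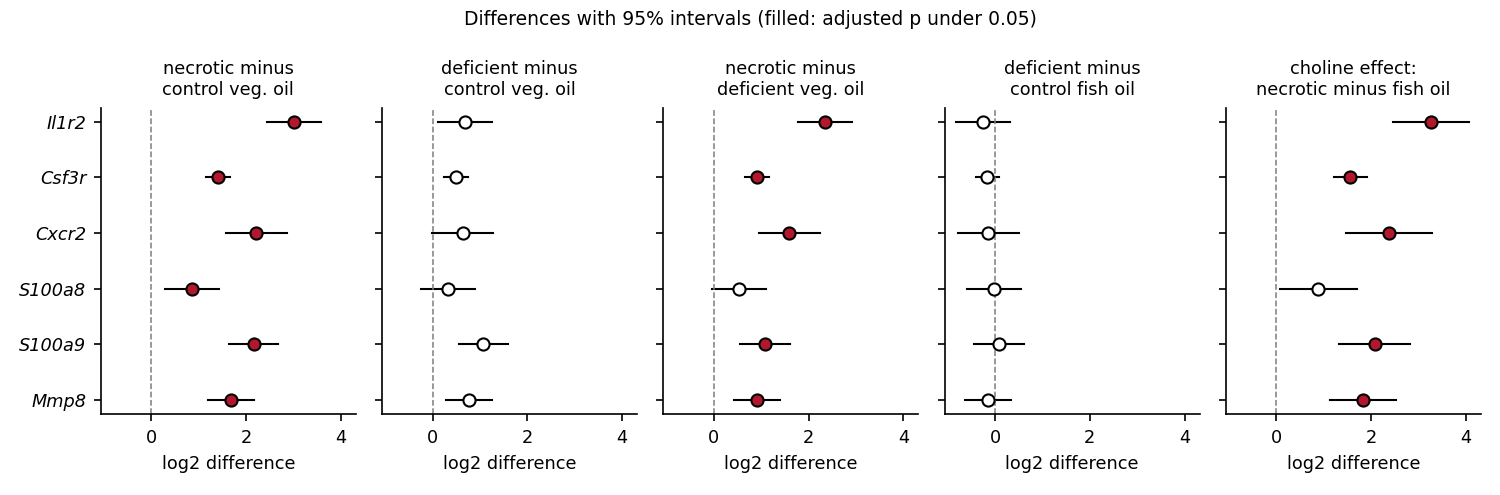
Log2 difference (horizontal axis) of each gene with its 95% interval in 5 comparisons; filled points passed an adjusted p under 0.05. All 6 points are filled for necrotic minus control vegetable oil kidneys, none for deficient minus control fish oil kidneys, and S100a8 is the open point in the necrotic minus deficient panel and in the interaction panel.

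Other genes linked to neutrophils were taken from lists. Like the members, the lists were chosen with earlier results of these data known, so their counts are no independent support. Of granule proteins other than the members, 6 of 19 measured genes were higher and 1 was lower in necrotic kidneys than in control vegetable oil kidneys (median difference 0.27, against 0.05 over all genes). Lcn2, which binds iron-loaded siderophores and is also made by injured tubule cells, rose by 3.60 ± 0.31, and Slpi, a protease inhibitor also made by epithelium, by 3.14 ± 0.37. Lyz2, the lysozyme shared by neutrophils and macrophages, rose by 1.42 ± 0.20 and Serpinb1a, an inhibitor of neutrophil elastase, by 0.96 ± 0.15. The other called genes, beyond the rule for named genes, were Olfm4 (1.32, adjusted p = 0.00824) and Pglyrp1 (0.58, adjusted p = 0.0182), which rose, and Bpi (-0.68, adjusted p = 0.0191), which fell. Of the proteins that neutrophil precursors pack into granules in the bone marrow, 6 that did not pass are given here, chosen after their values were seen. Mpo, the peroxidase of primary granules, differed by -1.18 (adjusted p = 0.0589). Elane, neutrophil elastase, differed by 0.55 (adjusted p = 0.0611), Prtn3, proteinase 3, by 0.70 (adjusted p = 0.0557) and Ctsg, cathepsin G, by 0.21 (adjusted p = 0.354). Camp, the cathelicidin precursor, differed by 0.31 (adjusted p = 0.159) and Ltf, lactoferrin, by 0.27 (adjusted p = 0.488).

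In deficient vegetable oil kidneys 3 granule genes rose against control vegetable oil kidneys, namely Lcn2, Lyz2 and Fcnb. Fcnb, a ficolin stored in neutrophil granules in mouse and human, was named after its values were seen. It had 8.67 and 8.37 in necrotic kidneys, 10.20 and 10.87 in deficient vegetable oil kidneys, and 8.32 and 8.41 in control vegetable oil kidneys. It was higher in deficient vegetable oil kidneys than in control vegetable oil kidneys by 2.17 (adjusted p = 0.00513) and lower in necrotic than in deficient vegetable oil kidneys, by -2.01 (adjusted p = 0.00133). In the latter comparison 3 of the 19 granule genes were higher, Mmp9, Olfm4 and Slpi, and Fcnb alone was lower. Mmp9, also named after its values were seen, did not follow the members' order. It had 10.04 and 9.45 in necrotic kidneys, 8.66 and 8.59 in deficient vegetable oil kidneys, and 9.63 and 9.96 in control vegetable oil kidneys.

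Surface receptors and adhesion molecules were counted next. Of 17 measured receptor and adhesion genes 12 were higher and 0 lower in necrotic than in control vegetable oil kidneys (median 1.07). In deficient vegetable oil kidneys 2 were higher. Fpr1 (0.46, adjusted p = 0.151) and Cxcr1 (0.21, adjusted p = 0.406), named after their values were seen, did not pass in the necrotic comparison. Macrophage markers also rose there, 11 of 17 measured, and which cells carried the receptor genes of necrotic kidneys was not tested. Clec4e, a lectin that senses dead cells, rose by 2.01 ± 0.16 and Clec4d, its partner lectin, by 2.75 ± 0.29. Itgam, the integrin chain CD11b, rose by 2.87 ± 0.30, and Fcgr2b, an inhibitory antibody receptor, by 3.20 ± 0.40. Clec4e, Clec4d and Itgam were also higher in necrotic than in deficient vegetable oil kidneys, by 1.73, 1.74 and 1.51. Fcgr2b had 2.65 in the deficient vegetable oil comparison (adjusted p = 0.0231) and differed by 0.55 between necrotic and deficient vegetable oil kidneys (adjusted p = 0.497). Of the 5 measured NADPH oxidase subunits, which make superoxide in phagocytes, 4 rose and 1 fell. Ncf1 rose by 1.16 ± 0.15, Cybb by 1.18 ± 0.20 and Rac2 by 1.13 ± 0.21, and Cyba fell by 0.88 ± 0.16. Rac2 missed the threshold without control vegetable oil replicate 1 (1.04, adjusted p = 0.0511).

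Among the signals that act on the members, 4 of the 5 measured CXC chemokines that Cxcr2 binds rose in necrotic kidneys (median 1.15). Cxcl2 had 9.54 and 8.90 in necrotic kidneys, against 5.04 and 4.95 in control vegetable oil kidneys, and rose by 4.22 ± 0.25. In deficient vegetable oil kidneys it had 6.28 and 5.83, a difference of 1.05 from control vegetable oil kidneys (adjusted p = 0.106). Cxcl6 rose by 1.05 ± 0.12 and Cxcl3 by 1.15 ± 0.17 in necrotic kidneys. Cxcl1 rose by 1.68 ± 0.38, but missed the threshold without necrotic replicate 1 (1.16, adjusted p = 0.0821) or without control vegetable oil replicate 1 (1.73, adjusted p = 0.0656) or 2 (1.64, adjusted p = 0.0824). Of 11 transcription factors, growth factors and receptors of granulocytes and macrophages 7 rose and 1 fell in necrotic kidneys. Of the transcription factors, named after their values were seen, Cebpb, Gfi1 and Spi1 rose. Cebpe (0.23, adjusted p = 0.177) and Cebpa (0.003, adjusted p = 0.993) did not pass. Csf1r is also counted among the macrophage markers below. Csf1, the macrophage growth factor, rose by 1.12 ± 0.14, its receptor Csf1r by 1.15 ± 0.20 and Csf2ra by 0.97 ± 0.15. Csf2rb, the beta chain that the receptor of granulocyte-macrophage colony-stimulating factor shares with others, fell by 1.79 ± 0.23. Its probe set was bright, with 10.79 and 10.35 in necrotic kidneys and between 12.10 and 12.69 on all other arrays. Which cells gave the Csf2rb signal was not tested. Csf3, the ligand of Csf3r, was named after its value was seen. It rose by 0.48 ± 0.14 (adjusted p = 0.0438) in necrotic kidneys, against a difference of -0.04 in deficient vegetable oil kidneys (adjusted p = 0.913).

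Of the wider interleukin 1 system, which includes the ligands that Il1r2 captures, 10 of 14 measured genes rose and 1 was lower (median 0.88). The ligand genes Il1a and Il1b, named after their values were seen, rose by 1.05 (adjusted p = 0.033) and 1.24 (adjusted p = 0.0498). Il1a had 5.57 and 4.54 in necrotic kidneys, and Il1b had 8.17 and 6.86. Il1r1, the signalling receptor, rose by 1.80 ± 0.11, Il1rl1, the alarmin receptor ST2, by 2.77 ± 0.20, Il1rn, the soluble antagonist, by 2.29 ± 0.20, and Il1rl2, a receptor of epithelial interleukin 1 relatives, by 1.13 ± 0.14. In deficient vegetable oil kidneys 2 of the 14 passed, Il1rn at 1.82 (adjusted p = 0.00525) and Il1r1 at 0.80 (adjusted p = 0.0168). In the current gene table Il1r2, Il1r1, Il1rl2, Il1rl1 and Il18r1 lie within 5 protein-coding genes of each other on chromosome 9, and all 5 rose. Neighbours of the other members are given as values chosen after they were seen. Cxcr1, the gene next to Cxcr2, differed by 0.21 ± 0.16 (adjusted p = 0.406), and Mmp10, next to Mmp8, by 0.34 ± 0.21 (adjusted p = 0.312). Mmp7 lies 3 protein-coding genes from Mmp8 and rose by 3.49 ± 0.32. S100a8 and S100a9 are adjacent on chromosome 2, where S100a6, a family member of many cell types, rose by 2.02 ± 0.25 and S100a1 fell by 1.05 ± 0.14.

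Of 13 S100 relatives and calprotectin receptors 4 rose and 2 fell (median 0.44). The largest fall was that of S100g, the calcium-binding calbindin-D9k of distal tubule and intestine, by 2.36 ± 0.16, and Tlr4, a receptor of calprotectin, rose by 1.00 ± 0.17. Of 19 metalloproteinases and inhibitors 6 rose and 2 fell (median 0.34). Mmp7, an epithelial matrilysin, rose by 3.49 ± 0.32, Timp1, an inhibitor of Mmp8 and its relatives, by 2.83 ± 0.29 and Mmp19 by 1.26 ± 0.16, and Timp4 fell by 1.02 ± 0.15. Of 7 endothelial adhesion genes 2 rose, both also in deficient vegetable oil kidneys. Icam1, on which neutrophils halt, differed by 1.45 ± 0.16 in necrotic and 1.53 in deficient vegetable oil kidneys, and Selp, P-selectin, by 1.48 ± 0.17 and 0.98. In the deficient minus control fish oil comparison 0 of the genes in these 9 lists passed in limma, which called no probe set there.

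**Figure D3:**
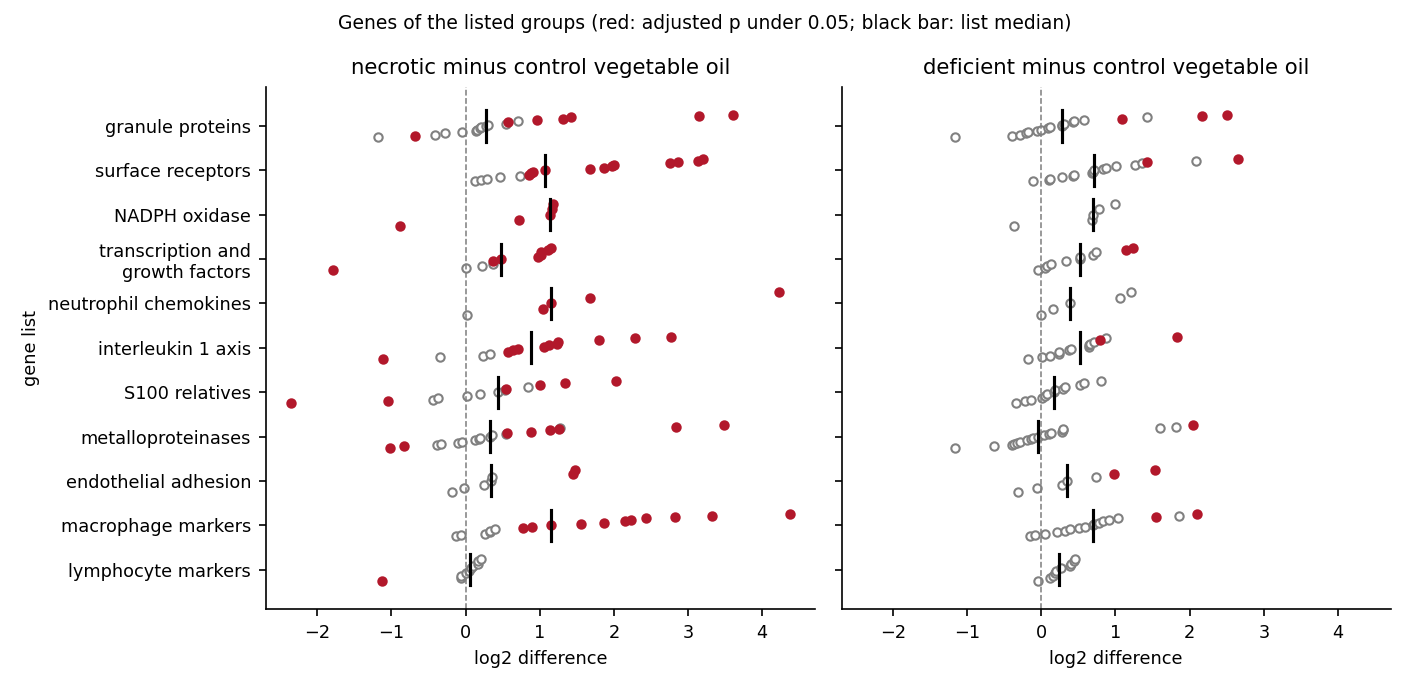
Log2 difference (horizontal axis) of each measured gene, by list (vertical axis), in necrotic (left) and deficient vegetable oil kidneys (right) against control vegetable oil kidneys; red points passed an adjusted p under 0.05, open points did not, and black bars are list medians. Receptor, oxidase and chemokine genes lie mostly above 0 on the left, with medians of 1.07, 1.13 and 1.15, while the granule list has a median of 0.27.

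Markers of other blood cells were set beside the members, and their counts differed by cell type. Of all probe sets 10.2% rose in necrotic against control vegetable oil kidneys. Of 17 measured macrophage markers 11 rose and 0 fell in necrotic kidneys (median 1.15), 2 rose in deficient vegetable oil kidneys, and 10 were lower in deficient fish oil than in deficient vegetable oil kidneys. Their mean level per array was 9.26 and 9.29 in necrotic kidneys, 8.32 and 8.77 in deficient vegetable oil kidneys and 7.77 and 7.87 in control vegetable oil kidneys. It was 7.60 and 7.64 in deficient fish oil kidneys and 7.63 and 7.61 in control fish oil kidneys. The mean of the 6 members was 7.73 and 7.14 in necrotic kidneys, 6.18 and 6.24 in deficient vegetable oil kidneys and 5.53 and 5.56 in control vegetable oil kidneys. Platelet markers rose in 3 of 4 genes in necrotic kidneys, erythroid markers in 1 of 7, mast cell markers in 0 of 6 and lymphocyte markers in 0 of 10, with 1 lower. Of 7 urothelial and squamous markers, a source of S100a8 and S100a9 outside blood cells, 2 rose, Krt13 and Krt14 (list median -0.05). The uroplakins Upk1a (-0.46), Upk1b (-0.05), Upk2 (-0.43) and Upk3a (-0.33) and the keratin Krt4 (0.32) did not pass. The mean of these 7 markers was 7.70 and 7.08 in necrotic kidneys, where the mean of the members was 7.73 and 7.14. In deficient fish oil kidneys the marker mean was 7.44 and 6.94, and that of the members 5.41 and 5.48. Whether these cells added to the members' levels was not tested. Necrotic kidneys were also set against deficient vegetable oil kidneys, where 8 of the 17 macrophage markers were higher and 2 lower. In that comparison 3 of 7 erythroid markers were higher (Alas2 by 1.29, Hemgn by 1.44 and Ahsp by 1.52), as were 2 of 4 platelet markers.

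Most kidney cell markers were lower in necrotic kidneys, where the members were higher. In necrotic kidneys 4 of 5 proximal tubule markers were lower than in control vegetable oil kidneys (median -2.42), as were both thick ascending limb markers, both collecting duct markers and the podocyte marker Nphs1 (-0.90). Umod, the urinary protein of the thick ascending limb, fell by 3.29 and Aqp2, the water channel of the collecting duct, fell by 1.28. The mean level of the 5 proximal tubule markers was 11.02 and 10.91 in necrotic kidneys, 12.71 and 12.56 in deficient vegetable oil kidneys and 13.02 and 13.04 in control vegetable oil kidneys. In deficient against control vegetable oil kidneys the proximal tubule median was -0.45, and Slc5a2, a glucose carrier, differed by -0.57 (adjusted p = 0.0657). The part of any of these cells in the members' levels was not tested.

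**Figure D4:**
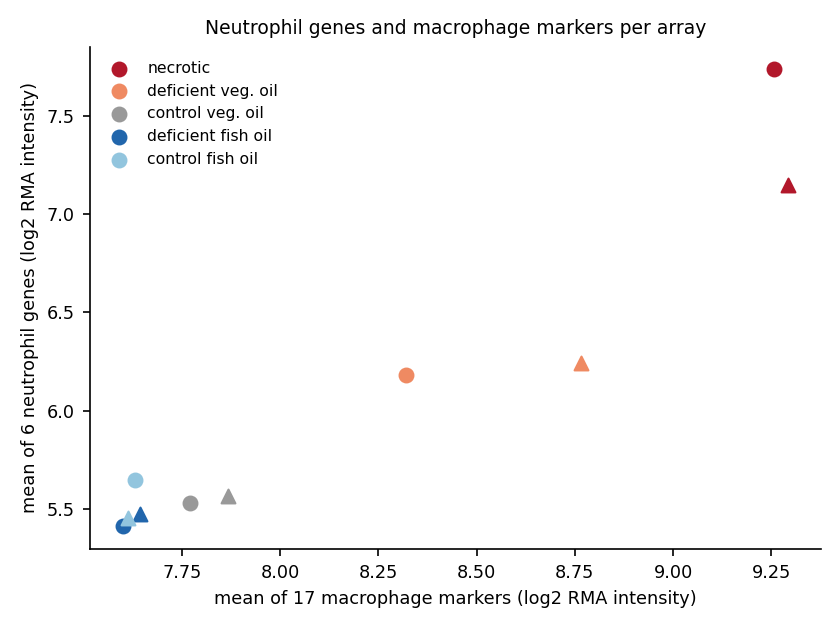
Mean log2 intensity of the 6 neutrophil genes (vertical axis) against that of 17 macrophage markers (horizontal axis) on each of the 10 arrays; circles are replicate 1 and triangles replicate 2. The necrotic arrays have near-equal macrophage means of 9.26 and 9.29 but member means of 7.73 and 7.14, and the fish oil arrays lie at the lower left.

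The genes whose levels followed each member most closely were listed over the 10 arrays, among the 3587 genes with an SD of at least 0.3. These likenesses describe the arrays, and the distance of the necrotic pools from the rest sets much of them. Il1r2 was followed most closely by Smox, spermine oxidase (r = 0.9888), Numbl (0.9871) and Pstpip1 (0.9858). Csf3r was followed by Gda, guanine deaminase (0.996), Nipsnap3b (0.9897) and C1qc, a complement chain made by macrophages (0.9886). Cxcr2 was followed by Hpse, heparanase (0.9851), Chrd, chordin (0.9805), and Adra2a, an adrenergic receptor (0.9798). S100a8 had the loosest followers, Osm, the cytokine oncostatin M (0.9462), Il1a (0.9344) and RT1-CE5, a class I antigen (0.9313). S100a9 was followed by Gprc5a (0.9869), Steap1 (0.9824) and Vwa5a (0.9819), and Mmp8 by Cyp26a1, which clears retinoic acid (0.9809), Steap1 (0.9765) and S100a9 (0.9707). S100a9 in turn ranked Mmp8 15th, and the calprotectin pair had r = 0.8821, with S100a9 the 26th gene from S100a8 and S100a8 the 562nd from S100a9.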

How the data were processed

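The authors deposited log2 intensities, 1 per probe set and array, made with RMA per the submitters' processing notes, which name no software version. They were used as deposited, with array medians between 7.28 and 7.43. Labelling used a whole-transcript kit per the labels' protocols. Probe sets were named from the platform annotation, through Entrez numbers, and a gene took its probe set with the highest mean. A single limma fit covered the 5 groups (limma 3.58.1, R 4.3.3; 5 residual and 3.59 prior degrees of freedom), with 8 contrasts and adjustment over all 29214 probe sets, and the fit was checked on simulated data. The number of arrays limits the precision, and the files give no detection calls. The members and lists were chosen with earlier results of these data known. By rule, the text names the 6 members, up to 4 called genes of each list with the smallest p in the necrotic comparison, and 3 like genes per member. Other named genes were chosen after their values were seen. A further contrast, of the 2 steps, was added after the values were seen. Alternatives were median centring, repeated quantile normalization, a filter at the 25th percentile of the mean, a trended robust prior, fits of the compared groups only, averaging of a gene's probe sets, each array left out, and a replicate block. Figures used Python 3.11.15 and matplotlib 3.10.9.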

Additional observations from a re-analysis of the deposited data

Results flagged for a closer look

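For 5 of the 6 neutrophil genes the effect of choline deficiency differed between the oils when the necrotic kidneys stood for vegetable oil. This was the interaction test of all probe sets in limma, which called 3.82% of them higher. The log2 excess of the necrotic over the fish oil effect was 3.27 for Il1r2, 1.56 for Csf3r, 2.07 for S100a9, 2.37 for Cxcr2 and 1.83 for Mmp8. Both necrotic pools were above the other 8 arrays for each of them, as for 14.9% of probe sets. With the deficient vegetable oil kidneys in place of the necrotic ones, no member passed, against 0.103% of probe sets. The word necrotic names no diet, so the interaction sets pools so labelled within the vegetable oil diet against fish oil pools that carry no such label. Groups of 2 pools are too small for a test of outlying samples.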

How the results depend on the processing

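Each comparison rests on 2 pools per group, and the fit lends every group the spread of all 5. The counts of members below come without the share of all probe sets called under each setting. They therefore do not tell a change in the members from a change over the whole array. When only the compared groups were fitted, the members called fell to 2 of 6 for necrotic minus deficient vegetable oil kidneys (Il1r2 and Csf3r) and to 0 for deficient fish oil minus deficient vegetable oil kidneys. In that fish oil comparison the count was 1 after quantile normalization once more. With 1 array left out in turn, where a lone pool is assumed to vary like the other groups, the members called numbered 5 to 6 for necrotic minus control vegetable oil, 3 to 6 for necrotic minus deficient vegetable oil, 0 to 1 for deficient minus control vegetable oil and 0 to 2 for deficient fish oil minus deficient vegetable oil kidneys. Differences that changed sign when an array was left out had not passed any threshold. They were S100a8 (-0.23 to 0.19) and Cxcr2 (-0.34 to 0.0475) in deficient minus control fish oil kidneys, and S100a8 (-0.11 to 0.30) and Cxcr2 (-0.29 to 0.0204) in control fish oil minus control vegetable oil kidneys. In the contrast of the steps they were S100a8 (-0.20 to 0.61), S100a9 (-0.39 to 0.40) and Mmp8 (-0.37 to 0.65). No sign changed in any other alternative. The filter at the 25th percentile left out S100a8 and kept the calls of the other 5 in necrotic minus control vegetable oil kidneys. Each member had 1 probe set, so averaging a gene's probe sets changed none of them. Replicate numbers are shared by the groups, but same-numbered arrays did not deviate together (correlations from -0.173 to 0.136 over 10 pairs of groups). With a replicate block the members called were 6 for necrotic minus control vegetable oil, 5 for necrotic minus deficient vegetable oil and 2 for deficient fish oil minus deficient vegetable oil kidneys. The crossed pairing was not run.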
